A study of Homo sapiens with 10 samples.

Results

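The nuclear genes for the subunits of the oxidative phosphorylation system were followed across 5 groups of cultured human cells. They were chosen by name alone: protein-coding gene rows of the count table whose symbols begin with the stems of complex I (NDUFA, NDUFB, NDUFC, NDUFS and NDUFV with a digit), complex II (SDHA to SDHD), complex III (CYC1 and UQCR), complex IV (COX4 to COX8) and complex V (ATP5F, ATP5M and ATP5P). These stems picked 89 of 60651 gene rows. Membership used no expression value, but the set as a topic was chosen with earlier results of these data known. By stem, 39 were counted under complex I, 4 under complex II, 10 under complex III, 17 under complex IV and 19 under complex V. NDUFA4 and its relative NDUFA4L2 were thus counted under complex I throughout, although the NDUFA4 protein is now placed in complex IV. RNA was sequenced from 10 libraries, 2 in each group. The groups were t-hESC cells given 1 µM BIX, t-hESC cells given 10 µM VXN, t-hESC cells given the solvent DMSO, HT29 cells given 10 µM VXN and HT29 cells given DMSO, and the treatment field gives 48 hours for each of them. HT29 is a colorectal cancer cell line, and t-hESC is labelled as a transformed pluripotent stem cell line, so each line stands for 1 cell population. BIX is a name used for inhibitors of G9a and GLP, enzymes that methylate lysine 9 of histone H3. VXN is a code name that is not expanded in the labels, and no HT29 library was given BIX. The series title places the work under drug-induced change of dimethylation at histone H3 lysine 9.

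Oxidative phosphorylation passes electrons from NADH (complex I) and succinate (complex II) through ubiquinone to complex III, cytochrome c and complex IV, where oxygen is reduced. Complexes I, III and IV pump protons across the inner mitochondrial membrane, and complex V, the ATP synthase, uses the returning protons to make ATP. Complex II is built from nuclear genes alone, whereas the other complexes combine nuclear subunits with subunits encoded in mitochondrial DNA. Pluripotent stem cells and many cancer cells are known for a high rate of glycolysis beside a working respiratory chain.

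Libraries held between 13137026 and 24492838 gene counts. Levels are given as CPM, that is, counts scaled by library size. With no read at all, a gene could still lie at 0.123 to 0.22 CPM depending on the library (3 counts, for counting error only). Replicates of a group were close, with correlations of log counts from 0.993 to 0.995. Chi-square per degree of freedom between them ran from 1.19 (HT29 VXN) to 1.85 (t-hESC VXN), not far above counting error. The p-values measure only variation of this kind. Its size was estimated over all groups and largely shared between genes (5 residual and 56.7 prior degrees of freedom). Of the 89 genes, 83 passed the filter on low counts and were tested. The other 6 are COX4I2, COX6A2, COX7A1, COX7B2, COX8C and ATP5MGL, which are rare or tissue-specific isoforms or related copies, and none of them exceeded 0.367 CPM in any library. The 6 pluripotency markers summed to 4050 to 4120 CPM in t-hESC BIX, 3690 to 3710 in t-hESC VXN and 4100 to 4170 in t-hESC DMSO. They summed to 7.95 to 10.2 CPM in HT29 VXN and 4.05 to 4.32 CPM in HT29 DMSO, where 2 of 6 exceeded 1 CPM in each group. The 8 colorectal markers summed to 1990 CPM in HT29 VXN and 1670 to 1680 CPM in HT29 DMSO, with CDX1 and CDH17 under 1 CPM, and to 114 to 127 CPM in t-hESC. Single colorectal markers moved in opposite directions: KRT20 averaged 703 CPM in HT29 VXN and 249 CPM in HT29 DMSO, and CEACAM5 averaged 48 CPM in HT29 VXN and 5.53 CPM in HT29 DMSO. VIL1 averaged 95 CPM in HT29 VXN and 182 CPM in HT29 DMSO, and all 3 were called. Fibroblast markers summed to 123 to 138 CPM in t-hESC BIX against 91.6 to 95 CPM in t-hESC DMSO, and to 6.79 to 9.52 CPM in HT29 VXN against 3.2 to 4.2 CPM in HT29 DMSO. Neuronal markers summed to 45.2 to 45.5 CPM in HT29 VXN against 12.2 to 14 CPM in HT29 DMSO, and MAP2 accounted for most of that gap. The leukocyte list rested on LYZ alone in HT29 (1410 CPM under VXN, 2980 CPM under DMSO), with PTPRC at or near 0. Endothelial markers reached at most 6.54 CPM and skeletal muscle markers at most 0.478 CPM in any library. The part of these shifts in the results was not tested. In bulk RNA, fewer cells of a type and less RNA per cell cannot be told apart.

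VXN lowered most of the system in HT29, and both compounds lowered many of its genes by a small amount in t-hESC. In HT29, 73 of the 83 tested genes were lower under VXN than under DMSO, 4 were higher and 6 did not pass. Calls here are edgeR quasi-likelihood tests with a Benjamini-Hochberg adjusted p under 0.05 over all 22495 genes tested, among which 26.9% were called lower and 33% higher in that comparison. The median log2 fold change of the 83 genes was -0.43 (range -1.22 to 1.27), beside a median of 0.06 over all genes. In t-hESC, 50 genes were lower and 0 higher under BIX (all genes 12.2% lower, 10.9% higher), with a median of -0.15 and a range of -0.56 to 0.45. By edgeR without adjustment 2 genes were higher at a p under 0.05, and by DESeq2 0 were called higher. For the same cells under VXN the counts were 40 lower and 1 higher (all genes 14.6% lower, 14.5% higher), with a median of -0.12 and a range of -0.57 to 0.95. All-gene medians in t-hESC were 0.0015 under BIX and 0.0036 under VXN. The sign of the fold change was negative for 78 of 83 genes in HT29, for 79 under BIX and for 72 under VXN in t-hESC.

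**Figure D1:**
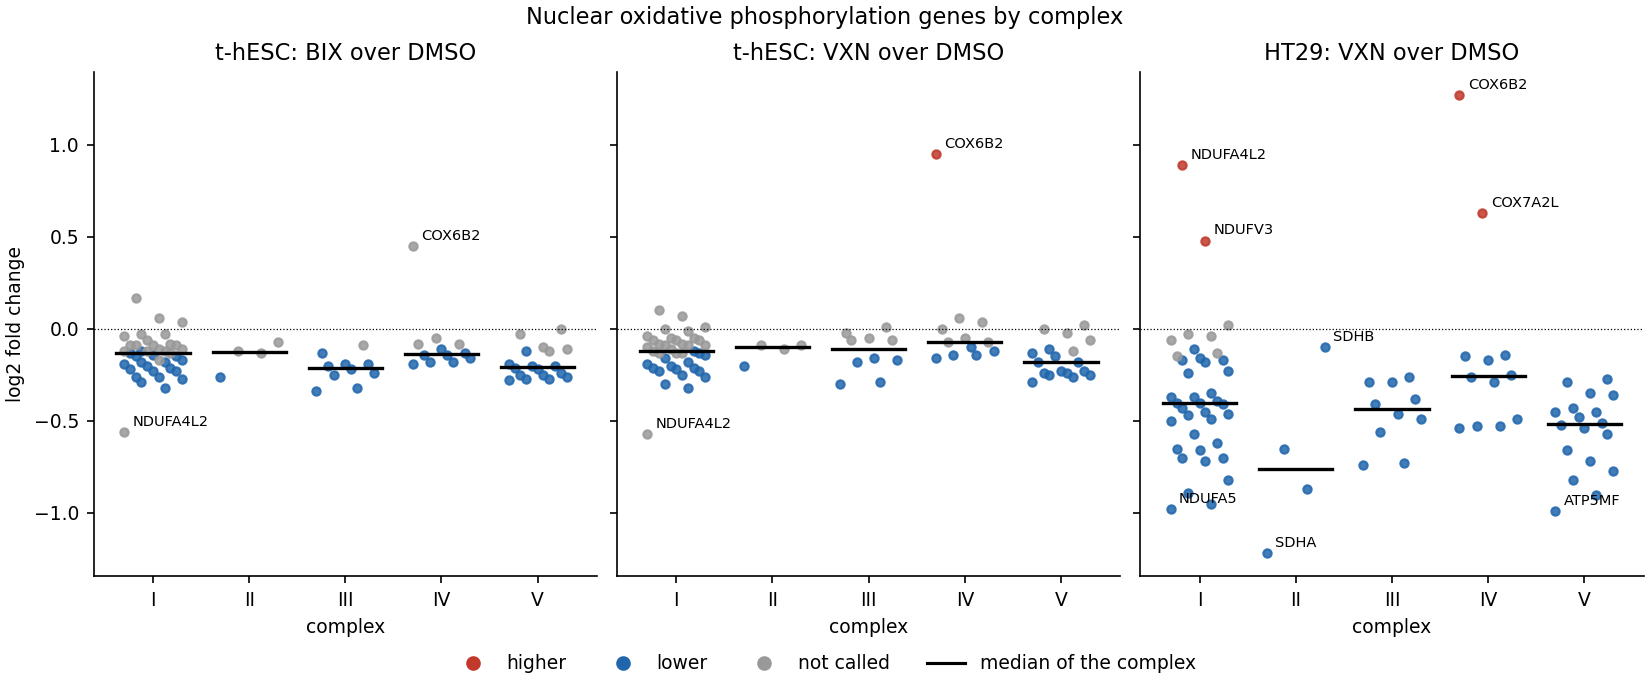
Log2 fold change (vertical axis) of each tested gene, by complex (horizontal axis), for BIX over DMSO and VXN over DMSO in t-hESC and for VXN over DMSO in HT29. Points are genes coloured by call and black lines are medians; in HT29 the medians lie between -0.76 (complex II) and -0.25 (complex IV), and in t-hESC none lies below -0.21.

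The promoters of some of these genes are shown because letters bound by NRF1, GABP and YY1 can be looked for in them. These factors are known to act on nuclear genes for mitochondrial proteins. Whether they had a part in the changes was not tested. RefSeq promoter windows (build GRCh38.p14, 250 bases before to 50 after a start) were found for 71 of the 89 genes, with 85 windows in all. The letters GCGCATGCG (NRF1), CCGGAAGT (GABP and other ETS factors) and AAGATGGCG (YY1) were searched on both strands. NRF1 letters stood in 12.9% of these windows against 1.92% of all 35116 windows and 2.36% of those of coding genes. GABP letters stood in 14.1% against 4.14% and 5.34%, and YY1 letters in 11.8% against 1.75% and 2.41%. At least 1 of the 3 stood in 34.1% of the windows of these genes, 7.33% of all windows and 9.46% of coding ones. A match describes the letters only. The 4 genes with matches printed here encode a subunit of complex II (SDHD, chr11:112086753-112086898, plus strand), a subunit of complex III (UQCRQ, chr5:132866522-132866667, plus strand), and the gamma and alpha subunits of complex V (ATP5F1C, chr10:7788057-7788202, plus strand, and ATP5F1A, chr18:46098271-46098416, minus strand, at one of its annotated starts). All 4 were lower under VXN in HT29. NDUFV3 (chr21:42893189-42893334, plus strand), a complex I gene that was higher there, is shown as a window that holds none of the 3. Of 59 genes lower in HT29 under VXN that have a window, 25 hold a match and 34, SDHA among them, do not, while 3 of 5 that were not called and 0 of 4 that were higher hold one. These examples were chosen after their values were seen. Each stretch runs 5′ to 3′ and holds the 120 bases before the start and the first 26 bases from it, with matches on either strand in capitals.
SDHD: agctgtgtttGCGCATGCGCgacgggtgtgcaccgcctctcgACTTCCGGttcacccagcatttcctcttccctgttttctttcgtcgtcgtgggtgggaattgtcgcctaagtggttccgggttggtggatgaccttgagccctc
UQCRQ: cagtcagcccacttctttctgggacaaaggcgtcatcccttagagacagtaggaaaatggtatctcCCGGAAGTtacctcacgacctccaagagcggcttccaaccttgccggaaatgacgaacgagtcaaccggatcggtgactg
ATP5F1C: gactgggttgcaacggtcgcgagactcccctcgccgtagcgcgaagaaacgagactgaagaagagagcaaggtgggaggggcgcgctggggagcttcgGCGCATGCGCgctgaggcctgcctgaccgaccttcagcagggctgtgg
ATP5F1A: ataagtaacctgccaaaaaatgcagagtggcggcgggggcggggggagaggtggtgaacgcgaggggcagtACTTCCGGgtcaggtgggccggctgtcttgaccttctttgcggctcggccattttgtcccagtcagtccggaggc
NDUFV3: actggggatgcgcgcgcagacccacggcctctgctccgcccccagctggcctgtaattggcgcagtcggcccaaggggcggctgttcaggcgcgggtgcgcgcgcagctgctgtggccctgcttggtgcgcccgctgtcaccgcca

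Complex I, the NADH dehydrogenase, had 31 of 39 genes lower and 2 higher under VXN in HT29, with a median log2 fold change of -0.40. Of 29 accessory subunit genes, which surround the catalytic core, 22 were lower, 1 was higher and 6 did not pass. NDUFA5, an accessory subunit of the matrix arm, was measured at 38.6 and 40.7 CPM in HT29 VXN against 76.6 and 79.5 CPM in HT29 DMSO. The treated libraries lay below both control libraries and within the 36 to 40.9 CPM spanned by the t-hESC libraries. Its log2 fold change was -0.98 ± 0.054 (SE; edgeR adjusted p = 2.12e-25), the lowest of the complex. NDUFS5, an accessory subunit facing the intermembrane space, had 74.4 and 80.1 CPM in HT29 VXN against 147 and 151 CPM in HT29 DMSO (log2 fold change -0.95 ± 0.04; edgeR adjusted p = 2.72e-31). The genes that did not pass in this comparison were NDUFA8, NDUFA11, NDUFA13, NDUFB1, NDUFB9 and NDUFS4, with log2 fold changes from -0.15 to 0.02. NDUFB9, for example, had 306 and 299 CPM in HT29 VXN against 302 and 297 CPM in HT29 DMSO, and these libraries overlap.

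A pair of complex I symbols rose in HT29 under VXN. NDUFV3, which encodes a small accessory subunit of the NADH-oxidising module, had 23.7 and 27.4 CPM in HT29 VXN against 17.8 and 18.8 CPM in HT29 DMSO. The groups did not overlap, and the log2 fold change was 0.48 ± 0.073 (edgeR adjusted p = 4.6e-08). NDUFA4L2 is a relative of NDUFA4, a gene named for complex I whose protein is now placed in complex IV, and is known as a target of hypoxia-inducible factor. It had 3.71 and 3.65 CPM in HT29 VXN against 2.06 and 1.92 CPM in HT29 DMSO (log2 fold change 0.89 ± 0.20; edgeR adjusted p = 0.000101). With DESeq2 in place of edgeR the NDUFA4L2 call was lost (adjusted p = 0.0733). NDUFA4 itself went the other way, with 84.7 and 84.8 CPM in HT29 VXN against 109 and 111 CPM in HT29 DMSO (log2 fold change -0.37).

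Complex II, succinate dehydrogenase, also serves the citric acid cycle, and all 4 of its genes were called lower in HT29 under VXN, by unequal amounts and with an unstable call for SDHB. SDHA, the flavoprotein that oxidises succinate, had 70.8 and 70.4 CPM in HT29 VXN against 165 and 165 CPM in HT29 DMSO. This was the lowest log2 fold change of the 83 genes, at -1.22 ± 0.041 (edgeR adjusted p = 5.34e-37). SDHC and SDHD are the membrane anchors. SDHC had 49.7 and 48 CPM in HT29 VXN against 92 and 86.9 CPM in HT29 DMSO (log2 fold change -0.87), and SDHD had 77.2 and 80.3 CPM against 121 and 126 CPM (log2 fold change -0.65). SDHB, the iron-sulphur subunit that passes electrons to the anchors, had 92.2 and 95.9 CPM in HT29 VXN against 102 and 98.6 CPM in HT29 DMSO. Its groups did not overlap but its log2 fold change was only -0.10 ± 0.041 (edgeR adjusted p = 0.0386). That call was lost with DESeq2, with a minimum count of 50, without the first HT29 DMSO library and without the first HT29 VXN library.

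Among the 89 genes, SDHA had the largest share of counts in rows named as its pseudogenes (7.36% to 22.9% by library). Near copies and readthrough genes with symbols of their own, described below, are not among those rows. Shared reads left uncounted would not show there. Rows annotated as pseudogenes of these 89 genes numbered 160 and held 0.25% of the summed counts of both, and SDHA alone had more than 5% of its counts in such rows. Its pseudogene rows summed to a log2 ratio of 0.59 between HT29 VXN and HT29 DMSO, opposite to SDHA. With those rows added, the log2 ratio for SDHA was -0.98. Whether reads moved between SDHA and its copies was not tested.

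All 10 genes of complex III, cytochrome bc1, were lower in HT29 under VXN, with log2 fold changes from -0.74 to -0.26 and a median of -0.43. UQCRC2, a core protein of the matrix side, had 172 and 175 CPM in HT29 VXN against 296 and 285 CPM in HT29 DMSO (log2 fold change -0.74 ± 0.033; edgeR adjusted p = 7.42e-30). UQCR10, a small membrane subunit, had 53.8 and 54 CPM against 89.5 and 89.1 CPM (log2 fold change -0.73 ± 0.045; edgeR adjusted p = 4.99e-23). Both genes showed a gap between groups many times wider than the spread within them. Of the redox-active subunits, CYC1, cytochrome c1, changed by -0.49 and UQCRFS1, the Rieske iron-sulphur protein, by -0.26 on the log2 scale. UQCRHL is a near copy of UQCRH, so its level (9.31 and 8.76 CPM in HT29 VXN, 13.1 and 13.6 CPM in HT29 DMSO) is uncertain.

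In complex IV, cytochrome c oxidase, 10 of 12 tested genes were lower and 2 higher in HT29 under VXN, and the median, -0.25, was the nearest to 0 of the 5 complexes. COX6B1, COX8A and COX7B, small subunits around the catalytic core, had log2 fold changes of -0.54, -0.53 and -0.49. COX4I1, the ubiquitous form of the largest nuclear subunit, had 200 and 194 CPM in HT29 VXN against 217 and 221 CPM in HT29 DMSO (log2 fold change -0.15 ± 0.033; edgeR adjusted p = 5.26e-05). COX7A2L, whose protein helps to join complexes III and IV into supercomplexes, went up while its relative COX7A2 went down. COX7A2L had 193 and 185 CPM in HT29 VXN against 123 and 121 CPM in HT29 DMSO (log2 fold change 0.63 ± 0.036; edgeR adjusted p = 3.23e-24). COX7A2 had 83.7 and 80.3 CPM in HT29 VXN against 101 and 100 CPM in HT29 DMSO (log2 fold change -0.29). COX6B2, a form of COX6B known from testis, had 1.44 and 0.76 CPM in HT29 VXN against 0.659 and 0.256 CPM in HT29 DMSO. Its log2 fold change of 1.27 ± 0.37 passed (edgeR adjusted p = 0.00195) but rests on few reads, and it no longer passed without the second HT29 DMSO library (adjusted p = 0.104) or without the first HT29 VXN library (adjusted p = 0.233).

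All 18 tested genes of complex V, the ATP synthase, were lower in HT29 under VXN, from -0.99 to -0.27 and with a median of -0.52. The 5 genes of the F1 sector, where ATP is made, had log2 fold changes from -0.90 to -0.43. ATP5F1A, its alpha subunit, had 220 and 214 CPM in HT29 VXN against 412 and 399 CPM in HT29 DMSO (log2 fold change -0.90 ± 0.032; edgeR adjusted p = 9.75e-36). ATP5F1B, the catalytic beta subunit, had 510 and 505 CPM against 823 and 777 CPM (log2 fold change -0.66 ± 0.029; edgeR adjusted p = 4.19e-30). In both genes every treated library lay below every control library. ATP5MC1, ATP5MC2 and ATP5MC3 encode the same mature c subunit, whose ring turns in the membrane, and changed unequally, by -0.77, -0.36 and -0.82 on the log2 scale. The 4 genes of the peripheral stalk, which holds the F1 sector still, ranged from -0.72 to -0.45. ATP5MF, a membrane subunit, had the lowest value of the complex, with 53.3 and 49.3 CPM in HT29 VXN against 104 and 101 CPM in HT29 DMSO. The rows ATP5MF-PTCD1 and NDUFC2-KCTD14 are readthrough genes that overlap ATP5MF and NDUFC2, so how reads were split between them is uncertain.

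**Figure D2:**
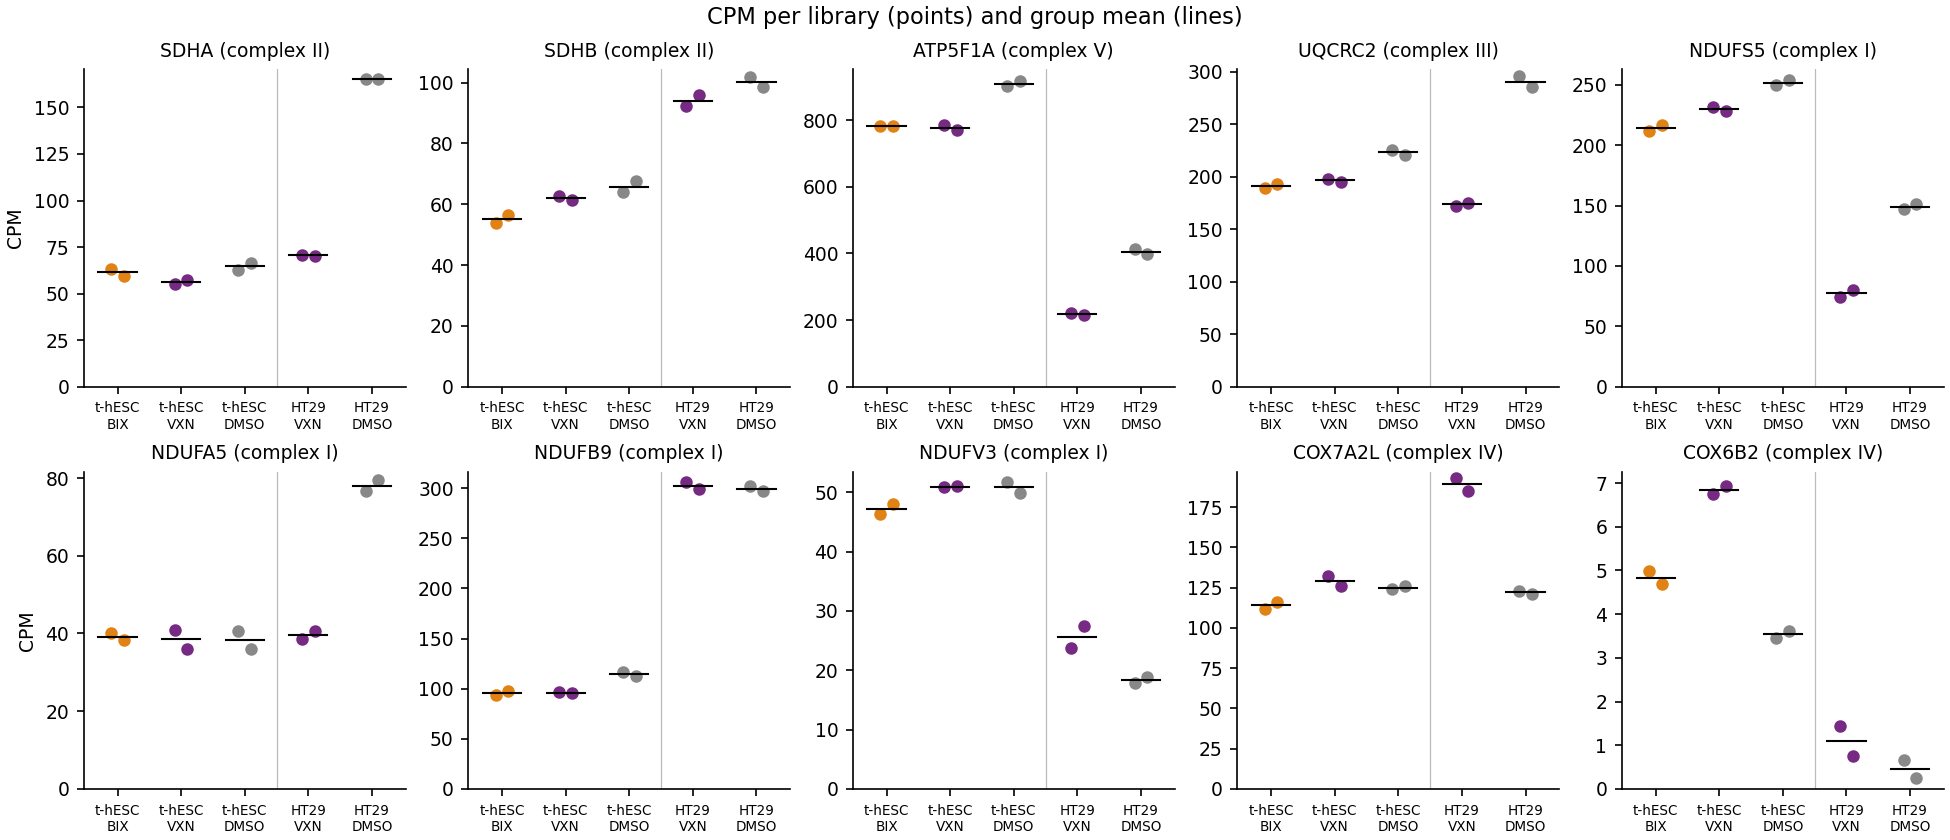
CPM (vertical axis, from 0) of 10 genes in each library (points) with group means (lines), for t-hESC BIX, t-hESC VXN, t-hESC DMSO, HT29 VXN and HT29 DMSO from left to right. SDHA, ATP5F1A, UQCRC2, NDUFS5 and NDUFA5 are lower in HT29 VXN than in HT29 DMSO, COX7A2L and NDUFV3 are higher, and SDHB and NDUFB9 differ little.

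In t-hESC the changes under either compound were small and mostly downward. Under BIX, 19 of 39 genes of complex I, 1 of 4 of complex II, 9 of 10 of complex III, 8 of 12 of complex IV and 13 of 18 of complex V were lower, with median log2 fold changes of -0.13, -0.12, -0.21, -0.14 and -0.21. Under VXN the numbers lower were 16, 1, 5, 5 and 13, with medians of -0.12, -0.10, -0.11, -0.07 and -0.18. Over all genes 12.2% were lower under BIX and 14.6% under VXN. In complex II, 1 call among 4 genes is too few to set against those shares. With DESeq2 in place of edgeR, 33 genes were lower under BIX rather than 50. Calls fell over the whole table too, with 1552 of all 22495 genes lower rather than 2743. The authors' deposited tables, at an adjusted p under 0.05, hold fewer of these genes: 5 lower under BIX (NDUFB9, NDUFS3, NDUFS5, NDUFS6 and UQCRQ) and 4 under VXN (NDUFB9, NDUFC1, UQCRQ and ATP5MF), with 0 higher in each. For HT29 the authors' deposited table holds 63 lower and 3 higher (NDUFV3, COX6B2 and COX7A2L). Each of those calls has the same direction here. Calls over all genes of the deposited tables were not counted, so these numbers cannot be set against a share. The BIX and VXN comparisons use the same 2 DMSO libraries, so their values are given side by side only.

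The genes with the clearest falls in t-hESC were in complexes V, III and I. ATP5F1B had 965 and 964 CPM under BIX and 969 and 973 CPM under VXN, against 1150 and 1160 CPM under DMSO. All 4 treated libraries lay below both controls, and the log2 fold changes were -0.26 ± 0.029 under BIX (edgeR adjusted p = 5.18e-11) and -0.25 ± 0.028 under VXN (edgeR adjusted p = 8.03e-11). UQCRQ, a small subunit of complex III named for ubiquinone binding, had 60.2 and 58.5 CPM under BIX and 64.3 and 59 CPM under VXN, against 77.1 and 73.6 CPM under DMSO. This gave -0.34 ± 0.052 under BIX, the lowest value among called genes, and -0.29 ± 0.05 under VXN. NDUFB9, an accessory subunit of the membrane arm, had 93.9 and 97.5 CPM under BIX and 96.9 and 95.5 CPM under VXN, against 117 and 113 CPM under DMSO (log2 fold changes -0.27 and -0.26). UQCRC1, a core protein of complex III, had 177 CPM in both VXN libraries against 217 and 219 CPM under DMSO, a log2 fold change of -0.30 ± 0.037 (edgeR adjusted p = 6.74e-10). SDHB was the complex II gene that passed under BIX (53.9 and 56.4 CPM against 64.1 and 67.5 CPM under DMSO; log2 fold change -0.26), and SDHA was the one that passed under VXN (55.1 and 57.3 CPM against 62.6 and 66.6 CPM; log2 fold change -0.20). That SDHA call was lost without the second t-hESC DMSO library (adjusted p = 0.06).

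COX6B2 was the only one of the 83 genes called higher in t-hESC under VXN, with 6.75 and 6.93 CPM against 3.46 and 3.62 CPM under DMSO. The groups did not overlap, and the log2 fold change was 0.95 ± 0.17 (edgeR adjusted p = 1.04e-05). Under BIX its value was 4.98 and 4.69 CPM, a log2 fold change of 0.45 ± 0.19 that did not pass (edgeR adjusted p = 0.0829).

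Gene length was set beside the BIX values because fold changes under BIX varied with it over all genes. The tested genes have a median genomic length of 9936 bases (RefSeq) against 24683 bases over the 18632 tested genes with a length. Genes were put into 4 length classes of equal size. In the shortest class the median log2 fold change under BIX was -0.186 for the 35 genes of the system and -0.031 over all genes. In the next class it was -0.167 for 33 genes of the system and -0.038 over all genes. In those classes 25 and 19 of the genes of the system were called lower, beside 14.2% and 18.7% of all genes. In the third class the median was -0.124 for 13 genes of the system, and 5 were lower, beside -0.007 and 15.6% over all genes. The longest class held 2 genes of the system, with a median of -0.121 and 1 lower, beside 6.78% of all genes. The values of these genes thus also lay nearer to 0 in the longer classes. The part of length in them was not tested. Over the whole table the class medians ran up to 0.088 in the longest.

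The response to VXN differed between the lines for most of these genes. The difference of log2 fold changes, HT29 minus t-hESC, was called lower for 61 genes and higher for 3 (all genes 20.3% lower, 22.9% higher), with a median of -0.28 and a range of -1.02 to 1.45. By complex, 25 of 39 genes of complex I, 3 of 4 of complex II, 9 of 10 of complex III, 7 of 12 of complex IV and 17 of 18 of complex V were called lower. SDHA and NDUFA5 had the lowest differences, at -1.02 ± 0.066 (edgeR adjusted p = 1.54e-21) and -0.99 ± 0.085 (edgeR adjusted p = 5.13e-16). With its pseudogene rows added, SDHA had log2 ratios of -0.98 in HT29 and -0.15 in t-hESC, so its rank rests on the SDHA row alone. The 3 genes with a higher value in HT29 were COX7A2L (0.59 ± 0.054; edgeR adjusted p = 8.22e-15), NDUFV3 (0.47 ± 0.093; edgeR adjusted p = 1.74e-05) and NDUFB9 (0.28 ± 0.052; edgeR adjusted p = 8.45e-06). For NDUFB9 the fall was in t-hESC and no change passed in HT29. Under VXN 37 genes were lower in both lines, which is 92.5% of the 40 lower in t-hESC and 50.7% of the 73 lower in HT29, beside 88% of all tested genes of the system being lower in HT29.

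**Figure D3:**
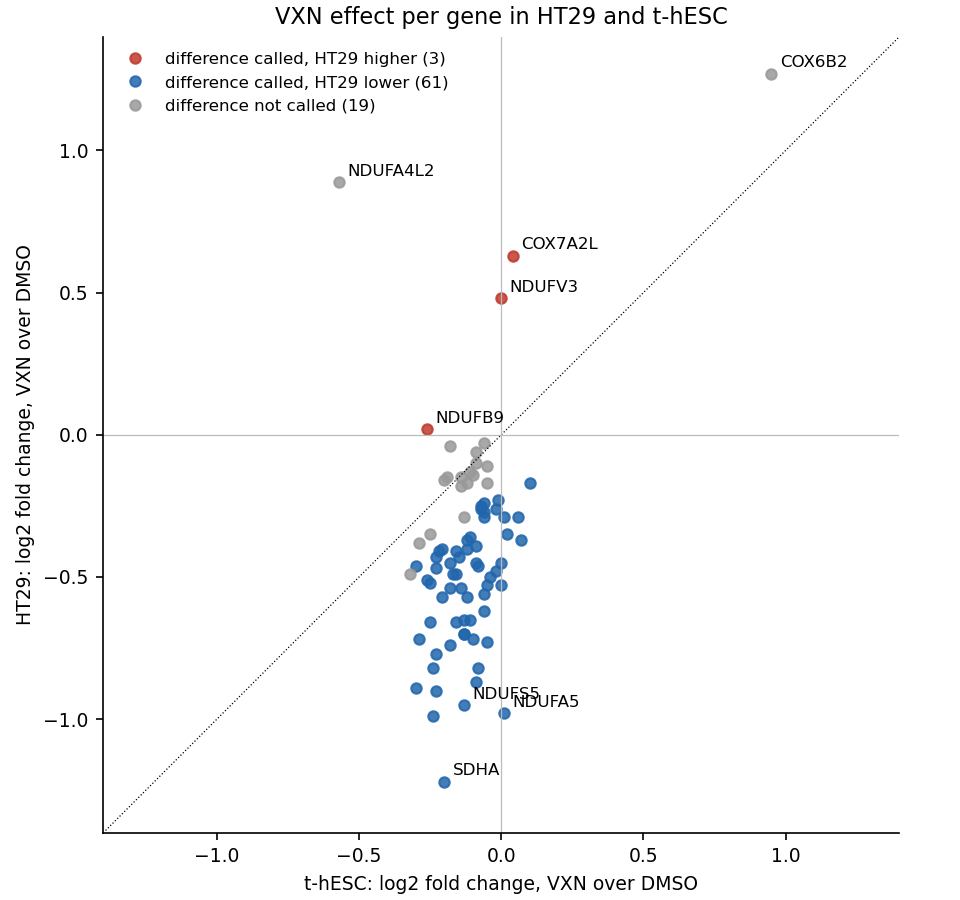
Log2 fold change of VXN over DMSO in HT29 (vertical axis) against that in t-hESC (horizontal axis) for the 83 tested genes. Most points lie below the dotted line of equal change; 61 genes have a called difference with HT29 lower, 3 with HT29 higher and 19 none.

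VXN and BIX were given at different doses, so their direct comparison in t-hESC describes 10 µM of the first against 1 µM of the second. It called 14 genes higher under VXN and 1 lower (all genes 11.6% higher, 11.2% lower), with a median log2 fold change of 0.03. Upper-quartile scaling made this 10 higher and 6 lower, size factors of the DESeq2 type 12 and 4, and DESeq2 5 and 0. The whole table moved as well, from 2600 higher and 2510 lower to 2193 and 2909, 2389 and 2696, and 1310 and 1672 in turn. Without the first t-hESC BIX library, and likewise without the first t-hESC VXN library, 7 were higher. NDUFS7, a core iron-sulphur subunit of complex I, had 71.2 and 73.1 CPM under VXN against 62.9 and 60 CPM under BIX (log2 fold change 0.23 ± 0.053; edgeR adjusted p = 0.000561). UQCRFS1 had 159 and 156 CPM under VXN against 135 and 143 CPM under BIX (log2 fold change 0.18 ± 0.042; edgeR adjusted p = 0.000751). COX7A2L had 132 and 126 CPM under VXN against 112 and 116 CPM under BIX (log2 fold change 0.18 ± 0.042; edgeR adjusted p = 0.00106). These groups did not overlap in the 3 genes, but neither did they in some genes that were not called. Examples are NDUFA10 (edgeR adjusted p = 0.377) and NDUFA9 (edgeR adjusted p = 0.489). With 2 libraries in each group, lack of overlap thus adds little to a call, here or elsewhere in the text.

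Without either compound the lines themselves differed in the makeup of the system. Under DMSO, 57 genes were lower and 18 higher in HT29 than in t-hESC (all genes 45.6% lower, 38.9% higher), with a median log2 difference of -0.43 beside -0.12 over all genes. Upper-quartile scaling moved the median over all genes to -0.23 and left the genes of the system at -0.31 relative to it. Complex II stood the other way from the rest, with 3 of 4 genes higher in HT29 and a median of 0.89, while the medians were -0.48, -0.35, -0.42 and -0.44 for complexes I, III, IV and V. SDHA had 165 and 165 CPM in HT29 DMSO against 62.6 and 66.6 CPM in t-hESC DMSO (log2 difference 1.35 ± 0.042; edgeR adjusted p = 2.23e-39). SDHD had 121 and 126 CPM in HT29 DMSO against 54.5 and 54.6 CPM in t-hESC DMSO (log2 difference 1.18 ± 0.045). SDHC was similar, with 92 and 86.9 CPM in HT29 DMSO against 85.2 and 85.5 CPM in t-hESC DMSO, a log2 difference of 0.07 that did not pass.

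Subunits of the same complex could lie on opposite sides between the lines. In complex V, ATP5F1E, the epsilon subunit of the F1 sector, had 306 and 307 CPM in HT29 DMSO against 83.3 and 84.6 CPM in t-hESC DMSO (log2 difference 1.87 ± 0.039). ATP5F1A of the same sector had 412 and 399 CPM in HT29 DMSO against 902 and 918 CPM in t-hESC DMSO (log2 difference -1.17 ± 0.029). ATP5PO, which ties the peripheral stalk to F1, had 67 and 67.5 CPM in HT29 DMSO against 165 and 168 CPM in t-hESC DMSO (log2 difference -1.31 ± 0.04). In complex I, NDUFB9 had 302 and 297 CPM in HT29 DMSO against 117 and 113 CPM in t-hESC DMSO (log2 difference 1.38 ± 0.035). NDUFA13, an accessory subunit also known as GRIM-19, had 34.9 and 38.3 CPM in HT29 DMSO against 125 and 121 CPM in t-hESC DMSO (log2 difference -1.75 ± 0.049). The widest differences were in genes of low level: NDUFA4L2 had a log2 difference of 2.69 ± 0.36 and COX6B2 of -2.93 ± 0.29. CPM are not scaled by transcript length, so levels are compared between libraries for 1 gene and not between genes.

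**Figure D4:**
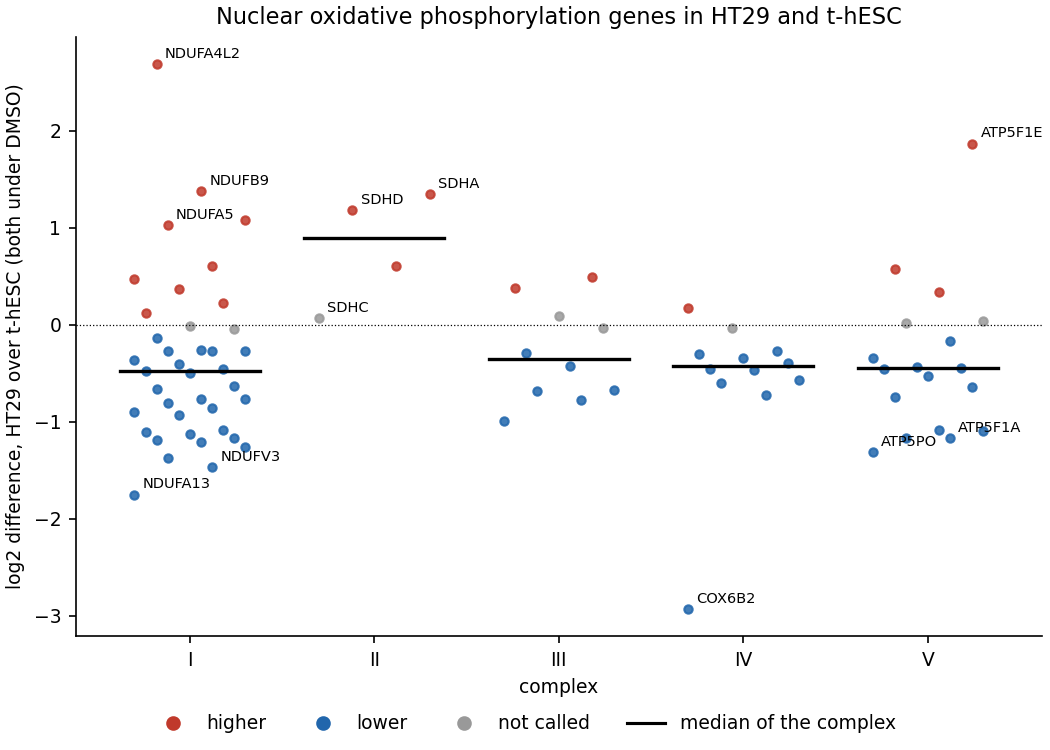
Log2 difference between HT29 and t-hESC under DMSO (vertical axis) of each tested gene, by complex (horizontal axis). Points are genes coloured by call and black lines are medians; the median of complex II is 0.89 and the other medians lie between -0.48 and -0.35.

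As a share of all gene counts, the 89 genes held 1.04% ± 0.0086 in t-hESC BIX, 1.05% ± 0.019 in t-hESC VXN and 1.14% ± 0.0016 in t-hESC DMSO (SD, n = 2 each). They held 0.605% ± 0.0053 in HT29 VXN and 0.884% ± 0.0032 in HT29 DMSO. In HT29, complex V held 0.189% under VXN against 0.307% under DMSO, and complex I held 0.188% under VXN against 0.263% under DMSO. The 13 mRNAs of the mitochondrial genome, which encode the partner subunits, held 1.98% ± 0.010 in t-hESC BIX, 3.09% ± 0.014 in t-hESC VXN and 1.45% ± 0.0044 in t-hESC DMSO. They held 1.36% ± 0.011 in HT29 VXN and 2.18% ± 0.018 in HT29 DMSO. In t-hESC 12 of the 13 were called higher under BIX and 13 under VXN, beside 10.9% and 14.5% of all genes. In HT29 under VXN 9 (69.2%) were lower, beside 26.9% of all genes, and 4 (30.8%) were higher, close to the 33% of all genes. MT-CO1, the catalytic subunit of complex IV, averaged 2440 ± 21 CPM in HT29 VXN and 5460 ± 81 CPM in HT29 DMSO. MT-ND2, a membrane subunit of complex I, averaged 1860 ± 18 CPM in HT29 VXN and 938 ± 14 CPM in HT29 DMSO.

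**Figure D5:**
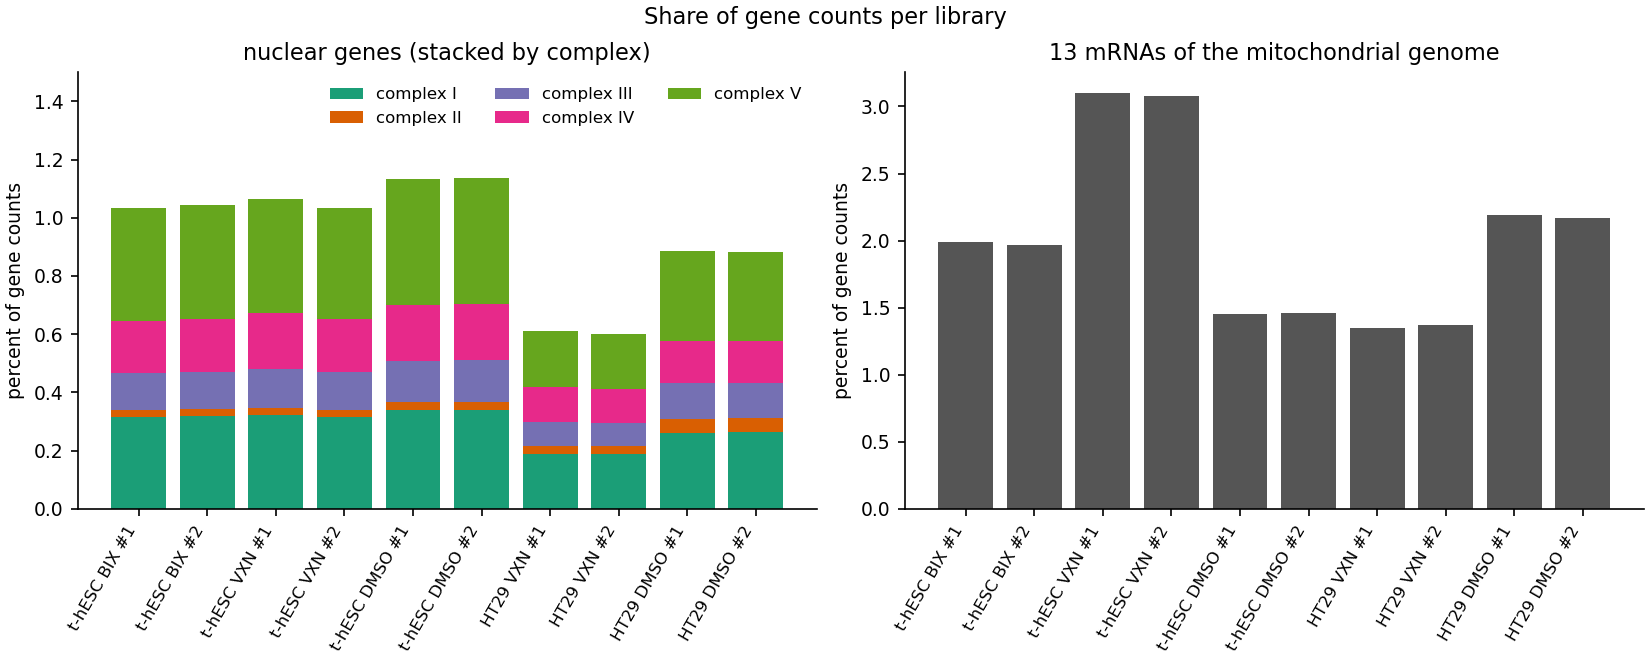
Percent of gene counts per library (bars, from 0) held by the 89 nuclear genes, stacked by complex (left), and by the 13 mRNAs of the mitochondrial genome (right). The nuclear share is lowest in the HT29 VXN libraries (mean 0.605%), and the mitochondrial share is highest in the t-hESC VXN libraries (mean 3.09%).

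Genes that build, feed or regulate the complexes are given by lists, with examples chosen after their values were seen. The shares of all tested genes to set beside each list are 26.9% lower and 33% higher in HT29 under VXN, 12.2% lower and 10.9% higher in t-hESC under BIX, and 14.6% lower and 14.5% higher in t-hESC under VXN. Of 58 assembly factors, 29 (50%) were lower and 8 (13.8%) higher in HT29 under VXN. In t-hESC 25 (43.1%) were lower and 1 (1.72%) higher under BIX, and 13 (22.4%) lower and 5 (8.62%) higher under VXN, the last pair being the nearest to the shares over all genes. COX18, which inserts the COX2 subunit into the membrane, averaged 8.51 ± 0.075 CPM in HT29 VXN and 19.8 ± 0.18 CPM in HT29 DMSO. SCO2, a copper chaperone of complex IV, averaged 25 ± 2.5 CPM in HT29 VXN and 14.2 ± 1.5 CPM in HT29 DMSO, so it rose (log2 fold change 0.81 ± 0.081; edgeR adjusted p = 8.06e-14). Of 24 genes for carriers and inhibitors around the complexes, 20 (83.3%) were lower and 1 (4.17%) higher in HT29 under VXN, beside 26.9% and 33% of all genes. In t-hESC 12 (50%) were lower under BIX and 9 (37.5%) under VXN, beside 12.2% and 14.6% of all genes, and the rest did not pass. Of the 10 ubiquinone synthesis genes in this list, 8 were lower in HT29 under VXN, from -1.60 to -0.22 on the log2 scale, and 2 did not pass (COQ4 at -0.05 and COQ5 at 0.06). COQ2, which attaches the isoprenoid tail to the ring, averaged 10.8 ± 0.86 CPM in HT29 VXN and 28.6 ± 1.2 CPM in HT29 DMSO (log2 fold change -1.41 ± 0.08; edgeR adjusted p = 1.12e-24). COQ3, a methyltransferase of the same route, averaged 7.66 ± 1.1 CPM in HT29 VXN and 23.4 ± 0.65 CPM in HT29 DMSO (log2 fold change -1.60). ATP5IF1, an inhibitor of the ATP synthase, averaged 65.4 ± 0.71 CPM in HT29 VXN and 127 ± 0.086 CPM in HT29 DMSO (log2 fold change -0.96).

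The citric acid cycle and pyruvate dehydrogenase list had 18 of 21 genes (85.7%) lower and 1 (4.76%) higher in HT29 under VXN, beside 26.9% and 33% of all genes. In t-hESC 10 (47.6%) were lower and 1 (4.76%) higher under BIX, beside 12.2% and 10.9%. Under VXN in t-hESC 11 (52.4%) were lower, beside 14.6% of all genes, and the other 10 did not pass. FH, fumarase, which follows complex II in the cycle, averaged 53.4 ± 2.4 CPM in HT29 VXN and 97.7 ± 1.9 CPM in HT29 DMSO (log2 fold change -0.88), and CS, citrate synthase, changed by -0.65. Of 15 regulators of nuclear mitochondrial genes, 7 (46.7%) were lower and 3 (20%) higher in HT29 under VXN, beside 26.9% and 33% of all genes. In t-hESC 5 (33.3%) were lower and 1 (6.67%) higher under BIX, beside 12.2% and 10.9%, and 3 (20%) lower and 4 (26.7%) higher under VXN, beside 14.6% and 14.5%. With 15 genes these shares rest on a few calls each. TFAM, which packages and transcribes mitochondrial DNA, averaged 70.9 ± 1.8 CPM in HT29 VXN and 158 ± 2.1 CPM in HT29 DMSO (log2 fold change -1.16 ± 0.041; edgeR adjusted p = 2.03e-35). GABPA, the DNA-binding subunit of GABP, changed by -0.65 ± 0.056 and NRF1 by -0.21 ± 0.077 on the log2 scale in HT29, and both passed. The members of this list that rose in HT29 were ESRRA, PPRC1 and PPARGC1A. PPARGC1A, a coactivator of mitochondrial genes, averaged 4.24 ± 0.49 CPM in HT29 VXN and 1.17 ± 0.33 CPM in HT29 DMSO (log2 fold change 1.86 ± 0.21; edgeR adjusted p = 1.17e-11).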

How the data were processed

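Total RNA was made into libraries with a TruSeq RNA v2 kit, per the labels' protocols. That kit keeps no strand, so reads of a gene and of an antisense partner cannot be told apart. The submitters' processing notes list, among builds, GRCh38 and hg38, and, among tools, STAR, fastp 0.20.1, DESeq2 1.34.0 and FastQC 0.11.9. For the counting program, no name is given in the sources used here. The treatment of reads shared by similar or overlapping genes is thus unknown. The authors deposited raw counts for 60651 genes and 1181 repeat families, and tables with log2 fold changes and adjusted p-values of their own comparisons, from which only the number and direction of calls are used here. Groups came from sample titles, because the labels' treatment field names DMSO for every sample. Columns of the count table matching no sample (4) were not used. Library sizes were summed over genes without the repeat families. The 2 libraries of a group are described by the series as biological replicates.

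All 10 libraries entered 1 edgeR fit of group means (version 4.0.16, under R 4.3.3), after TMM scaling and a filterByExpr minimum of 10 counts, and contrasts were tested by the robust quasi-likelihood F test. The common biological coefficient of variation was 0.021, with 5 residual and 56.7 prior degrees of freedom. A call is a Benjamini-Hochberg adjusted p under 0.05 over all 22495 genes tested. CPM are counts scaled to the library size times its TMM factor, and SE is the log2 fold change divided by the root of F. The genes, lists and tests were chosen with earlier results of these data known. Genes named follow a rule per comparison and complex (the 2 called genes with the smallest p in each direction, the extremes of the fold change, and paralogues in complexes IV and V), and others named were chosen after their values were seen. Alternatives were a minimum count of 50 or none, DESeq2 1.42.0 as the test, size factors of its type or upper-quartile factors, fits of only the compared groups, a replicate block, and each library left out. The fit was tested on simulated data drawn with its own estimates of spread, which cannot check those estimates. Genes of low count were given no change there. Gene lengths and promoters are from RefSeq (GRCh38.p14).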

Additional observations from a re-analysis of the deposited data

Results flagged for a closer look

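The response to VXN differed between the lines for most genes of the system. The difference of log2 fold changes (HT29 minus t-hESC, edgeR) was called lower for 61 and higher for 3. Over all genes 20.3% were called lower and 22.9% higher. In complex I the differences of genes named under the rule were -0.82 for NDUFS5, -0.99 for NDUFA5, -0.25 for NDUFA4, 0.28 for NDUFB9 and 0.47 for NDUFV3. In complex II they were -1.02 for SDHA and -0.78 for SDHC, and in complex III -0.56 for UQCRC2 and -0.68 for UQCR10. In complex IV they were 0.59 for COX7A2L, -0.47 for COX8A, -0.53 for COX6C, -0.39 for COX6B1, -0.35 for COX7A2, -0.33 for COX7B and -0.19 for COX6A1. In complex V they were -0.68 for ATP5F1A, -0.75 for ATP5MF, -0.57 for ATP5MC3, -0.54 for ATP5MC1 and -0.25 for ATP5MC2. Groups of 2 libraries allow no test for outlying samples.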

How the results depend on the processing

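Of 113 results for named genes under 17 alternatives, 1863 of 1921 values kept their direction and call, 58 kept the direction and lost the call, and 0 reversed; 91 results were never lost. With DESeq2, genes lower under BIX numbered 33 rather than 50, beside 1552 rather than 2743 over all genes. For VXN against BIX, genes higher numbered 5 with DESeq2 and 9 with only the groups compared rather than 14. Over all genes, 1310 and 2207 were higher under these settings rather than 2600. Genes lower numbered 4 with size factors of the DESeq2 type, 6 with upper-quartile factors and 2 with a minimum count of 50, rather than 1. Over all genes, 2696, 2909 and 2522 were lower rather than 2510. With DESeq2, no count filter or only the groups compared, 0 were lower, beside 1672, 2059 and 2091 over all genes. Leaving out each library in turn gave 40 to 52 genes lower and 0 to 0 higher under BIX, and 32 to 45 lower and 1 to 1 higher under VXN in t-hESC. It gave 69 to 74 lower and 3 to 4 higher under VXN in HT29, and 0 to 4 lower and 7 to 17 higher for VXN against BIX. For the difference between lines it gave 56 to 62 lower and 3 to 4 higher, and for the lines under DMSO 56 to 57 lower and 17 to 19 higher. A lone library was then assumed to vary like the other groups. Same-numbered libraries share only a number: correlations of their deviations ran from -0.038 to 0.014, and the replicate block gave 50 lower under BIX, 41 lower and 1 higher under VXN in t-hESC, 74 lower and 4 higher in HT29, 14 higher and 1 lower for VXN against BIX, 61 lower and 3 higher for the difference, and 57 lower and 18 higher between lines. The calls present under every alternative were 30 of 50 lower under BIX, 27 of 40 under VXN in t-hESC, 67 of 73 in HT29 and 52 of 61 for the difference. Among calls higher, 1 of 1 under VXN in t-hESC, 2 of 4 in HT29 and 3 of 3 for the difference were kept. For VXN against BIX only 4 of 14 higher and 0 of 1 lower were kept. Between lines 16 of 18 higher and 55 of 57 lower were kept. Genes under about 1 CPM are limited by depth.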
